A study of Mus musculus with 6 samples.

Results

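The circadian clock loop described here consists of 9 genes: the activators Arntl, Clock and Npas2, the cryptochromes Cry1 and Cry2, the REV-ERB receptors Nr1d1 and Nr1d2, the receptor gene Rora and the repressor gene Nfil3. They were taken from a list of gene names, and every array probe set annotated to one of them was kept, which gave 23 of the 45037 probe sets tested and 9 of 18193 genes. The study compared kidneys of ERRa KO male mice, which lack the orphan nuclear receptor ERRα, with kidneys of wild-type (WT) males, with 3 arrays per genotype. All mice were 2 to 3 months old and were kept on a standard diet under a 12 h light-dark cycle. The labels give no hour of collection, and they do not describe the deleted part of the gene or the strain. Both kidneys of a mouse were ground together before RNA extraction, so each value averages all cell types of the organ, and fewer cells of a type cannot be told apart from less RNA per cell. The labels call the replicates biological without saying that each is another animal, and the p-values measure the spread between these arrays.

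In the mammalian clock, BMAL1, encoded by Arntl, pairs with CLOCK or with its paralog NPAS2, binds E-box elements in DNA and activates the period, cryptochrome and REV-ERB genes. Period and cryptochrome proteins then repress that activator pair. In a second loop, REV-ERB receptors repress and ROR receptors activate genes with a ROR element, or RORE, of which Arntl is the best known and Nfil3 another. In rodent kidney these genes cycle over the day, and genes of tubular transport cycle with them.

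The REV-ERB and ROR receptors and the ERR family all read DNA through the core AGGTCA. The start regions of 4 members are printed, those of Arntl, Nfil3 and the REV-ERB genes Nr1d1 and Nr1d2. The sequences are RefSeq windows of 300 bases of build GRCm38.p6, each written 5′ to 3′ on the strand of the gene, and all 9 members matched a window by symbol. The Arntl window lies at chr7:113207261-113207560 on the forward strand, that of Nfil3 at chr13:52980990-52981289 on the reverse strand, that of Nr1d1 at chr11:98775328-98775627 and that of Nr1d2 at chr14:18239057-18239356, both on the reverse strand. Capitals mark motif matches on either strand.
Arntl: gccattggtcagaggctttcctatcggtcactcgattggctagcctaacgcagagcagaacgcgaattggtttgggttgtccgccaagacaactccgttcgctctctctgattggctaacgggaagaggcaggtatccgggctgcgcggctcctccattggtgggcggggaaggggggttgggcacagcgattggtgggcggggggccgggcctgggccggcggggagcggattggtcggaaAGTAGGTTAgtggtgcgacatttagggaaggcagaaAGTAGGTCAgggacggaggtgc
Nfil3: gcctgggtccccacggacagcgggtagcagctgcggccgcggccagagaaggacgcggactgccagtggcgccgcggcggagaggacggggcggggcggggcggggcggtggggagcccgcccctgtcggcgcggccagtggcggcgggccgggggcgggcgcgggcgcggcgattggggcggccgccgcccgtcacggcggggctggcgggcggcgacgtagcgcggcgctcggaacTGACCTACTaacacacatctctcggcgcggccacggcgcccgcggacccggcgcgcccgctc
Nr1d1: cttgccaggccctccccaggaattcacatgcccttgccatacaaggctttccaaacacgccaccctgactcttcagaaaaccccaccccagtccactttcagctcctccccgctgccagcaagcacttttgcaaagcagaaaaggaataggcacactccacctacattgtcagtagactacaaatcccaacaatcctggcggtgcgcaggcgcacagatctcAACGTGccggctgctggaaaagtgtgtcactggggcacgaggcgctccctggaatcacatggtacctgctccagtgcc
Nr1d2: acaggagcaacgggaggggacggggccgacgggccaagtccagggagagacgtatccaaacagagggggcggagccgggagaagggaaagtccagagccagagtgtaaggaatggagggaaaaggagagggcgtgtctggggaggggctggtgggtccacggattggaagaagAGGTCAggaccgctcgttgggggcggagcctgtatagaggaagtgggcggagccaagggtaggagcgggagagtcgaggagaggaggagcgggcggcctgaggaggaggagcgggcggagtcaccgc
In Arntl the capitals are AGTAGGTTA at positions 243 to 251, counted from 1 at the 5′ end of the window, and AGTAGGTCA at positions 279 to 287. The second matches the RORE, searched as ANTAGGTCA or ANTGGGTCA, and holds the core AGGTCA in its last letters. The first matches ANTAGGTTA, which was added to the search after the window had been read. In Nfil3 the capitals TGACCTACT at positions 239 to 247 are the RORE of Arntl, AGTAGGTCA, read on the other strand. In Nr1d1 the capitals mark AACGTG, the reverse complement of the E-box variant CACGTT, and in Nr1d2 the core AGGTCA.

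Of all 32851 start windows in the RefSeq table, 1.45% held the RORE, 0.39% ANTAGGTTA, 16.3% the core, 7.15% the E-box CACGTG, 4.68% the variant CACGTT, 1.66% a D-box (TTATGTAA or TTATGCAA) and 0.423% the extended core TCAAGGTCA that ERR proteins bind. Of the 12 windows of the 9 members, 2 held the RORE (1 of Arntl and 1 of Nfil3), 4 the core, 1 the E-box and 3 the variant, and 0 the D-box or TCAAGGTCA. The E-box was in Cry1, and the variant was in Cry1, Cry2 and Nr1d1. The core was in Arntl, Clock, Nfil3 and Nr1d2. Arntl and Nfil3 were known as genes with a RORE when listed, so the RORE share of the members is no independent result. The windows of Arntl also overlap each other. These are matches of letters in short windows and say nothing of binding.

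The labels were checked with Esrra, the targeted gene, whose brighter probe set read 6.66, 6.51 and 6.41 in ERRa KO, against 9.43, 9.43 and 9.52 in WT kidneys (difference -2.93, adjusted p = 9.85e-06). Of the 9 measured kidney markers 5 read higher and 4 lower in ERRa KO, and 0 of them passed. Umod read 13.14 to 13.37 in ERRa KO and 13.50 to 13.55 in WT arrays. Slc5a2 read 11.81 to 11.89 in ERRa KO and 11.53 to 11.67 in WT arrays. The summed level of the 9 was 15.93 to 16.03 in ERRa KO and 16.00 to 16.04 in WT arrays (log2 of the summed linear values). ERRa KO replicate 3 stood apart, since 11 of 13 liver markers were highest there, with Alb at 12.07 in that array, against 6.48 and 6.80 in the other ERRa KO arrays and 6.59 to 6.77 in WT arrays. The summed liver level was 14.98 in ERRa KO replicate 3, 14.43 and 14.62 in the other ERRa KO arrays and 14.50 to 14.57 in WT arrays. Cyp2e1 (13.68 to 13.81) and Ttr (12.65 to 13.21) were the brightest liver markers in every array, so that sum shows little of the others. Adipose markers read higher in 5 of 5 genes, with a summed level of 11.15 to 11.39 in ERRa KO and 11.09 to 11.28 in WT arrays. Blood markers read higher in 3 of 5, at 8.28 to 8.52 in ERRa KO and 7.91 to 8.38 in WT arrays, and the part of adipose and blood transcripts in the clock values was not tested.

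The activator Arntl was lower and the REV-ERB genes, Cry2 and Rora read higher in ERRa KO kidneys, and only the difference of Arntl passed the threshold in the gene fit. That fit was made with limma on log2 values with 1 probe set per gene, the one with the highest mean, and Benjamini-Hochberg adjustment over 18193 genes. Of the 9 genes, 1 passed an adjusted p under 0.05, against 0.495% of all genes, and it was lower, against 0.225% of all genes called lower. The median difference of the 9 genes was 0.01 on the log2 scale, and that of all genes 0.01, with 5 members higher and 4 lower. The ERRa KO and WT values did not overlap in 5 of the 9 genes, 4 higher and 1 lower, while 9.11% of all genes were higher and 9.56% lower without overlap. In a separate fit over all 45037 probe sets, 0 of the 23 probe sets passed, against 0.111% of all probe sets, and 11 had an unadjusted limma p under 0.05, against 10.9%. By the authors' deposited table, an unadjusted p under 0.05 was held by 10 of the 23, against 9.51% of all probe sets. Of the 23, 8 were higher without overlap, 4 of them probe sets of Rora, against 8.11% of all probe sets, and 4 were lower without overlap, against 8.39%. The members were chosen with earlier results of these data known, so their counts beside these shares are no independent result. When ERRa KO replicate 3, with its high liver markers, was left out, the differences were -0.77 for Arntl, 0.47 for Cry2, 0.57 for Nr1d1, 0.28 for Nr1d2 and 0.25 for Rora, and 0 members passed.

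**Figure D1:**
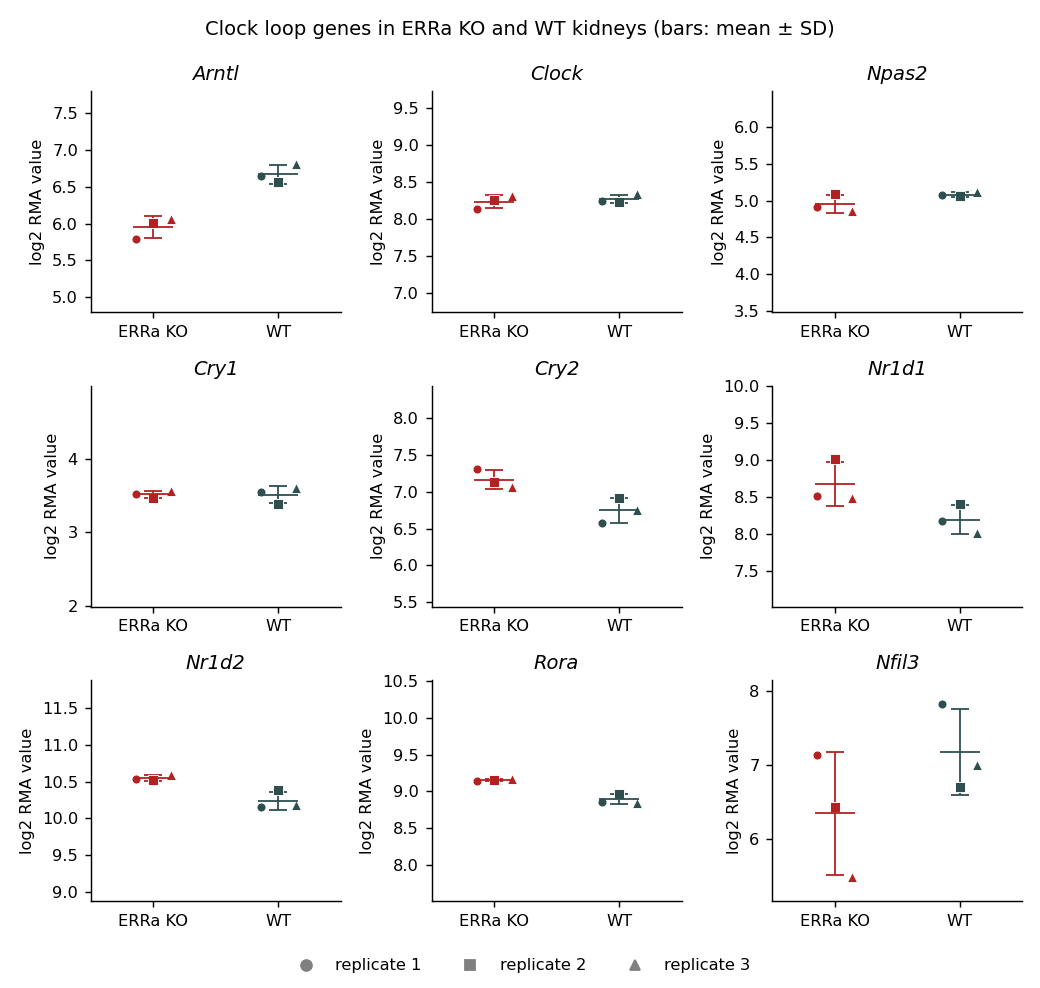
Log2 RMA value of the brightest probe set of each clock loop gene in the 3 ERRa KO arrays (left, red) and the 3 WT arrays (right, dark), with the mean and SD as bars and a marker shape per replicate number; each panel spans 3 log2 units around its own values. Arntl sits lower and Cry2, Nr1d1, Nr1d2 and Rora sit higher in ERRa KO without overlap, and Nfil3 spreads widely in both genotypes.

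Arntl, whose product BMAL1 is the activator that the loop cannot do without in mice, read 5.79, 6.01 and 6.07 in the 3 ERRa KO kidneys, against 6.64, 6.56 and 6.81 in the WT kidneys. The highest ERRa KO value stayed below the lowest WT value. The means were 5.95 ± 0.14 in ERRa KO and 6.67 ± 0.13 in WT (SD, n = 3 each), a fall of 1.64-fold (log2 difference -0.71, SE 0.09, 95% interval -0.93 to -0.49, limma adjusted p = 0.0330). In the fit over probe sets the same values gave an adjusted p of 0.0507, and leaving out any 1 array gave between 0.0600 and 0.118 in the gene fit with a difference of -0.77 to -0.63. The replicate block, which takes up the shared replicate numbers, gave an adjusted p of 0.0604. The other Arntl probe set, 1457740_at, read 5.35, 5.25 and 5.35 in ERRa KO and 5.12, 5.40 and 5.45 in WT kidneys. Its groups overlapped (difference -0.00, 95% interval -0.22 to 0.21, adjusted p = 0.993 over probe sets). The 2 probe sets of Arntl thus disagree, and their average differed by -0.36 with an adjusted p of 0.103.

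Clock and Npas2 encode the alternative partners of BMAL1. The brightest Clock probe set, 1418659_at, read 8.14, 8.25 and 8.32 in ERRa KO and 8.25, 8.23 and 8.33 in WT kidneys, with overlap (difference -0.04, 95% interval -0.19 to 0.12, adjusted p = 0.860). Another pair of Clock probe sets was lower in ERRa KO without overlap. Probe set 1418660_at read 7.22, 7.25 and 7.08 in ERRa KO, against 7.32, 7.42 and 7.42 in WT kidneys (difference -0.20, SE 0.07, adjusted p = 0.363 over probe sets). Probe set 1435775_at read 7.29, 7.38 and 7.08 in ERRa KO, against 7.42, 7.46 and 7.48 in WT kidneys (difference -0.21, SE 0.08, adjusted p = 0.431). In both, the lowest array was ERRa KO replicate 3. The dimmest Clock probe set, 1439314_at, lay at 3.36 in ERRa KO and 3.35 in WT kidneys, a low signal at which 81.2% of all probe sets were brighter.

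For Npas2 the difference depended on the probe set as well. The probe set that stands for the gene, 1421036_at, read 4.91, 5.09 and 4.86 in ERRa KO and 5.07, 5.06 and 5.12 in WT kidneys (difference -0.13, 95% interval -0.30 to 0.04, adjusted p = 0.536 in the gene fit). The groups overlapped through ERRa KO replicate 2, without which the difference was -0.20, and it was -0.08 without ERRa KO replicate 3. The other probe set, 1421037_at, with a mean over the 6 arrays almost as high (4.98, against 5.02 for the first), read 4.42, 4.89 and 4.62 in ERRa KO, against 5.14, 5.33 and 5.49 in WT kidneys. All 3 ERRa KO values were below all WT values, a difference of -0.68 (SE 0.13, 95% interval -0.98 to -0.37, adjusted p = 0.128 over probe sets). The 2 probe sets differ in what they show, and neither passed. With a variance trend and robust fitting 1421037_at passed in the fit over probe sets (adjusted p = 0.0382). That setting is permissive, since it called 379 of all genes in the gene fit, against 90 in the main fit. Probe set 1421037_at was not called with the replicate block, in the unmoderated test or without any 1 array.

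**Figure D2:**
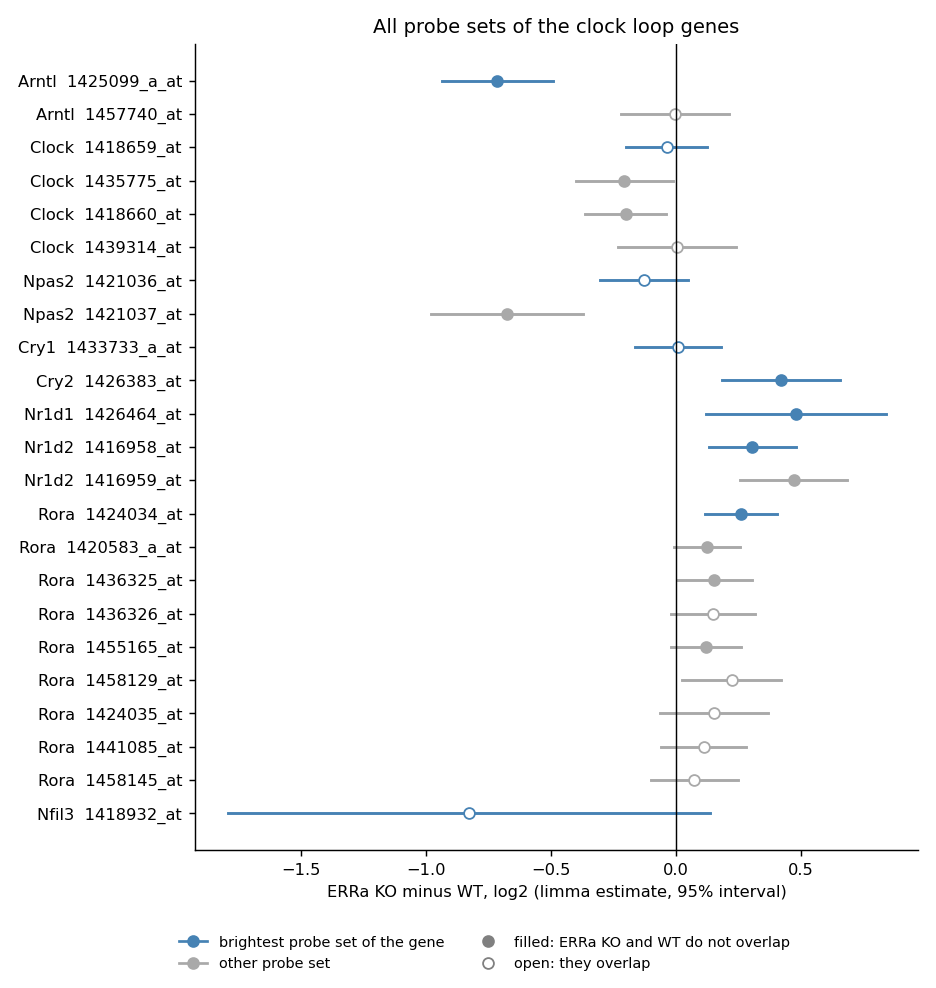
Difference between ERRa KO and WT kidneys (log2) for each of the 23 probe sets, as the limma estimate with its 95% interval from the fit over all probe sets; blue marks the brightest probe set of a gene, grey the others, and filled points mark probe sets whose ERRa KO and WT values do not overlap. All 9 Rora probe sets lie right of 0, and the pairs of Arntl and Npas2 probe sets lie apart.

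Among the cryptochromes, Cry2 read higher and Cry1 gave almost no signal. Cry2, a repressor of CLOCK and BMAL1, read 7.30, 7.13 and 7.06 in ERRa KO, against 6.57, 6.91 and 6.75 in WT kidneys. Every ERRa KO value lay above every WT value, and the difference was 0.42 (1.34-fold, SE 0.10, 95% interval 0.19 to 0.65, limma adjusted p = 0.148), which did not pass the threshold. Cry1 has 1 probe set on this array, 1433733_a_at, which read 3.52, 3.47 and 3.57 in ERRa KO and 3.55, 3.38 and 3.60 in WT kidneys, where 77.0% of all probe sets were brighter. Such a signal allows no statement on a change of Cry1 (difference 0.01, 95% interval -0.16 to 0.17, adjusted p = 0.978).

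The REV-ERB genes encode the haem-binding repressors REV-ERBα (Nr1d1) and REV-ERBβ (Nr1d2). Nr1d1 read 8.51, 9.02 and 8.49 in ERRa KO, against 8.17, 8.40 and 8.01 in WT kidneys. The groups were separated by a small gap, with replicate 2 the highest array in each genotype, and the difference was 0.48 (1.39-fold, SE 0.16, 95% interval 0.11 to 0.85, adjusted p = 0.274). Without ERRa KO replicate 2 the difference was 0.31. With the replicate block the SE of Nr1d1 fell to 0.08, and its limma adjusted p of 0.134 did not pass. Nr1d1 overlaps Thra in the RefSeq annotation, and whether its probes also read Thra transcripts was not tested. Nr1d2 has 2 probe sets, and they moved together. The brighter, 1416958_at, read 10.53, 10.52 and 10.59 in ERRa KO, against 10.16, 10.38 and 10.18 in WT kidneys (difference 0.31, SE 0.07, 95% interval 0.14 to 0.48, adjusted p = 0.146 in the gene fit). The dimmer, 1416959_at, read 8.12, 7.87 and 7.85 in ERRa KO, against 7.50, 7.56 and 7.36 in WT kidneys (difference 0.47, SE 0.09, adjusted p = 0.130 over probe sets). Neither probe set overlapped between genotypes. With a variance trend and robust fitting the brighter one passed in the gene fit (adjusted p = 0.0264). That setting called 379 of all genes, against 90 in the main fit, and no other alternative called Nr1d2 in the gene fit.

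Rora, which encodes the activator RORα that competes with the REV-ERBs at the RORE, has 9 probe sets, and all 9 read higher in ERRa KO kidneys by 0.07 to 0.26 with a median of 0.15. They measure 1 gene on the same arrays and are not independent. The brightest, 1424034_at, read 9.14, 9.15 and 9.17 in ERRa KO, against 8.86, 8.97 and 8.84 in WT kidneys. Its values were tight within ERRa KO (SD 0.02) and did not overlap those of WT, a difference of 0.26 (1.20-fold, SE 0.06, 95% interval 0.13 to 0.40, adjusted p = 0.120 in the gene fit). Under 2 alternatives this difference passed, with adjusted p = 0.0435 when only genes above the median level were tested and 0.0306 with a variance trend and robust fitting. Those settings called 220 and 379 of all genes, against 90 in the main fit. The difference did not pass with the replicate block, in the unmoderated test or without any 1 array. Of the other Rora probe sets 3 did not overlap between genotypes, among them 1420583_a_at at 8.87, 8.85 and 8.91 in ERRa KO, against 8.75, 8.76 and 8.74 in WT kidneys.

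Nfil3, a leucine zipper repressor that binds D-box elements, spread more than 99.7% of all genes within genotypes. It read 7.14, 6.43 and 5.47 in ERRa KO and 7.82, 6.70 and 7.00 in WT kidneys. ERRa KO replicate 3 was lowest and WT replicate 1 highest, while ERRa KO replicate 1 lay above WT replicates 2 and 3. The means were 6.34 ± 0.83 in ERRa KO and 7.17 ± 0.58 in WT (SD, n = 3 each). Its difference of -0.83 was the largest of the 9 in size and had the widest interval, -1.83 to 0.17 (adjusted p = 0.497). Without ERRa KO replicate 3 it was -0.39 (adjusted p = 0.702), and without WT replicate 1 it was -0.50 (adjusted p = 0.713). With the replicate block the SE of Nfil3 was 0.23, against 0.43 in the main fit, and its limma adjusted p of 0.282 did not pass.

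**Figure D3:**
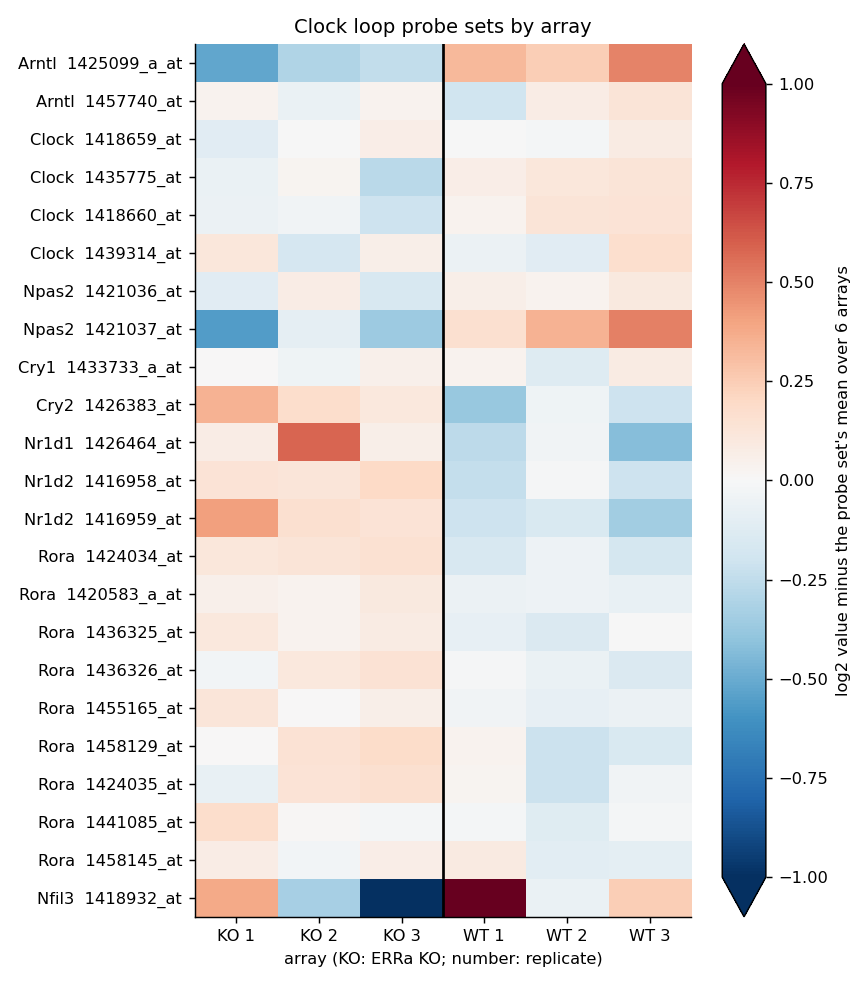
Each row is a probe set and each column an array (3 ERRa KO left of the line, 3 WT right of it), coloured by the log2 value minus the mean of that probe set over the 6 arrays, with values beyond ±1 at the end of the scale. The probe sets of Cry2, Nr1d1 and Nr1d2 are above their means in all 3 ERRa KO arrays, Arntl 1425099_a_at and Npas2 1421037_at are below, and Nfil3 reaches both ends of the scale.

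The spread between replicates differed among members. By the brightest probe set of each gene, the pooled SD within genotypes was 0.05 for Rora and 0.07 for Clock, 0.09 for Nr1d2, Npas2 and Cry1, 0.14 for Arntl, 0.15 for Cry2, 0.25 for Nr1d1 and 0.72 for Nfil3. Other probe sets differed, with 0.21 for Npas2 1421037_at and 0.02 to 0.13 over the Rora probe sets. Nr1d1 spread more than 97.6% of all genes and Rora more than 15.3%. A small difference of the brightest Rora probe set could thus be read at a precision that Nr1d1 and Nfil3 did not reach.

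Paralogs were compared by the difference between their log2 values in each array, ERRa KO against WT. The numbers are therefore differences of changes, not of levels. The change of Nr1d1 minus that of Nr1d2 was 0.17 (exact permutation test, two-sided, p = 0.60). The change of Clock minus that of Npas2 was 0.09 by the probe set that stands for Npas2 (exact p = 0.60). With 1421037_at for Npas2, a choice added after the values were seen, it was 0.64 (exact p = 0.10). Adjusted over the 3 pairs listed, every p was 0.60 with the brightest probe sets, and 3 arrays against 3 cannot give less than 0.10. The remaining pair, Cry1 and Cry2, is not read, since Cry1 gave almost no signal. Whether paralogs changed unequally could not be resolved.

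**Figure D4:**
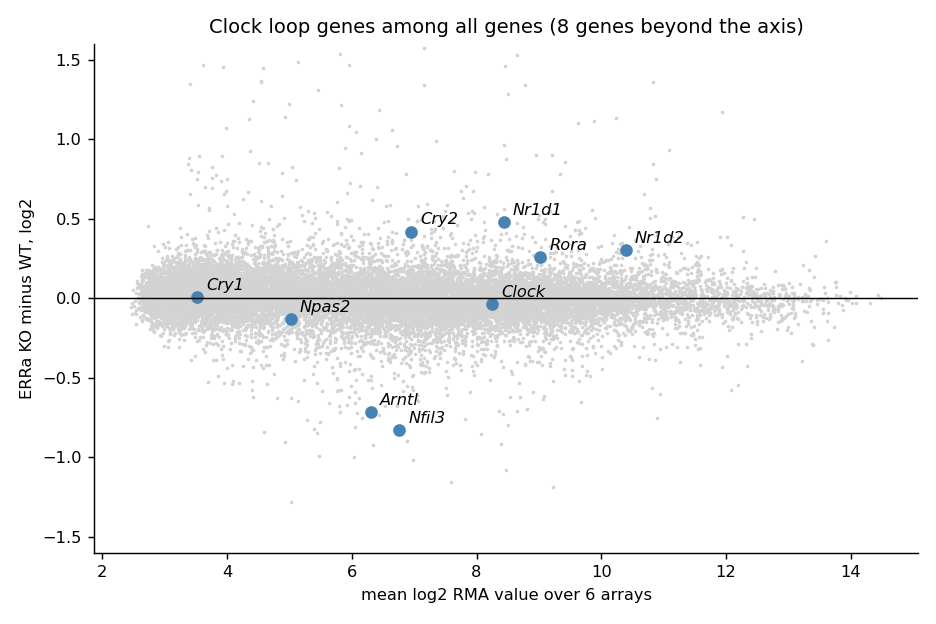
Difference between ERRa KO and WT kidneys (log2) against the mean log2 RMA value over 6 arrays for all 18193 genes (grey), with the 9 clock loop genes in blue; 8 genes lie beyond the vertical axis at ±1.6. Arntl and Nfil3 lie at the lower edge of the cloud, Cry2 and Nr1d1 near its upper edge, and Cry1 at its dim end.

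Against all 18193 genes, 0.159% had a lower difference than Arntl and 0.088% a lower one than Nfil3. At the other end, 99.1% of genes had a lower difference than Nr1d1, 98.9% than Cry2, 97.8% than Nr1d2 and 96.8% than Rora. Clock, Npas2 and Cry1 lay at 34.0%, 11.8% and 49.9%. These shares place the members by size of difference and take no account of their errors.

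The genes whose values over the 6 arrays lay closest to those of Arntl, by the root mean square difference after centring each gene on its mean, were Tubb2a, a tubulin gene (0.07), Col1a2, a fibrillar collagen gene (0.07), Ypel2 (0.08) and Ccna2, which encodes cyclin A2 (0.08), of 18184 genes compared. Closest to the mirror image of Arntl were Noct, which encodes the rhythmic protein nocturnin (0.06), Ciart, a repressor of the clock activators (0.08), Sardh, which encodes sarcosine dehydrogenase (0.10), and Pmaip1, a gene of apoptosis (0.11). Noct read 8.19, 8.14 and 7.95 in ERRa KO, against 7.51, 7.48 and 7.27 in WT kidneys (difference 0.67, SE 0.09, limma adjusted p = 0.0346). Of the members, Cry2 was nearest to the mirror image, at 0.18, and Nr1d2, Nr1d1 and Rora followed at 0.23, 0.25 and 0.25. With 6 arrays in 2 groups, any gene that differs between genotypes by a like amount is close by this measure.

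Of 35 other clock genes listed for the loop, 30 were measured, and 3 rose and 0 fell in the gene fit. The background was 0.269% of all genes higher and 0.225% lower. Across the 30, 21 read higher and 9 lower, with a median of 0.06, and 13 had an unadjusted limma p under 0.05, against 12.4% of all genes. The list was written with earlier results of these data known, so its counts beside the background are no independent result. The genes that rose were the D-box activator gene Dbp by 1.12 (limma adjusted p = 0.0145), Per2, which encodes a partner of the cryptochromes, by 1.04 (adjusted p = 0.0274) and the repressor gene Ciart by 0.59 (adjusted p = 0.0414). Dbp alone was called without ERRa KO replicate 1, ERRa KO replicate 3 or WT replicate 2, and without ERRa KO replicate 2 or WT replicate 1 none of the 30 was.

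Among the roles of the other clock genes, the D-box factors and the repressors had the medians farthest from 0. All 3 D-box factors read higher with a median of 0.44, and of the 7 period genes and other repressors 6 read higher with a median of 0.41. Below the threshold were Hlf at 0.44 (adjusted p = 0.112) and Tef at 0.37 (adjusted p = 0.0786), both D-box activators, the period gene Per3 at 0.41 (adjusted p = 0.193) and the E-box repressor gene Bhlhe40 at 0.40 (adjusted p = 0.220). The BMAL1 paralog gene Arntl2 read 5.46, 5.54 and 5.46 in ERRa KO, against 5.61, 5.76 and 5.63 in WT kidneys (difference -0.18, adjusted p = 0.312).

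Genes that act on clock proteins had medians nearer 0. Of 9 measured kinases, ubiquitin ligases and proteases 6 read higher and 3 lower with a median of 0.06, and 0 passed, with 2 at an unadjusted limma p under 0.05, where 12.4% of all genes lay. These were the deubiquitinase gene Usp2, itself a rhythmic transcript, at 0.40 (adjusted p = 0.0878) and the dim Fbxl21, a ligase subunit of cryptochromes, at 0.29 (adjusted p = 0.151). Fbxw11, the brightest of this role, read 0.06 (adjusted p = 0.713). Of 7 corepressors and coactivators 0 passed and 1 had an unadjusted limma p under 0.05. That 1 was Ppargc1a, which encodes PGC-1α, a coactivator of RORα and of ERRα, at 10.19, 10.17 and 10.21 in ERRa KO, against 10.31, 10.30 and 10.39 in WT kidneys (difference -0.14, adjusted p = 0.347). Nono read -0.12 (adjusted p = 0.456). The E-box output Nampt, an enzyme of NAD synthesis, read -0.03 with overlap (95% interval -0.16 to 0.09, adjusted p = 0.838).

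**Figure D5:**
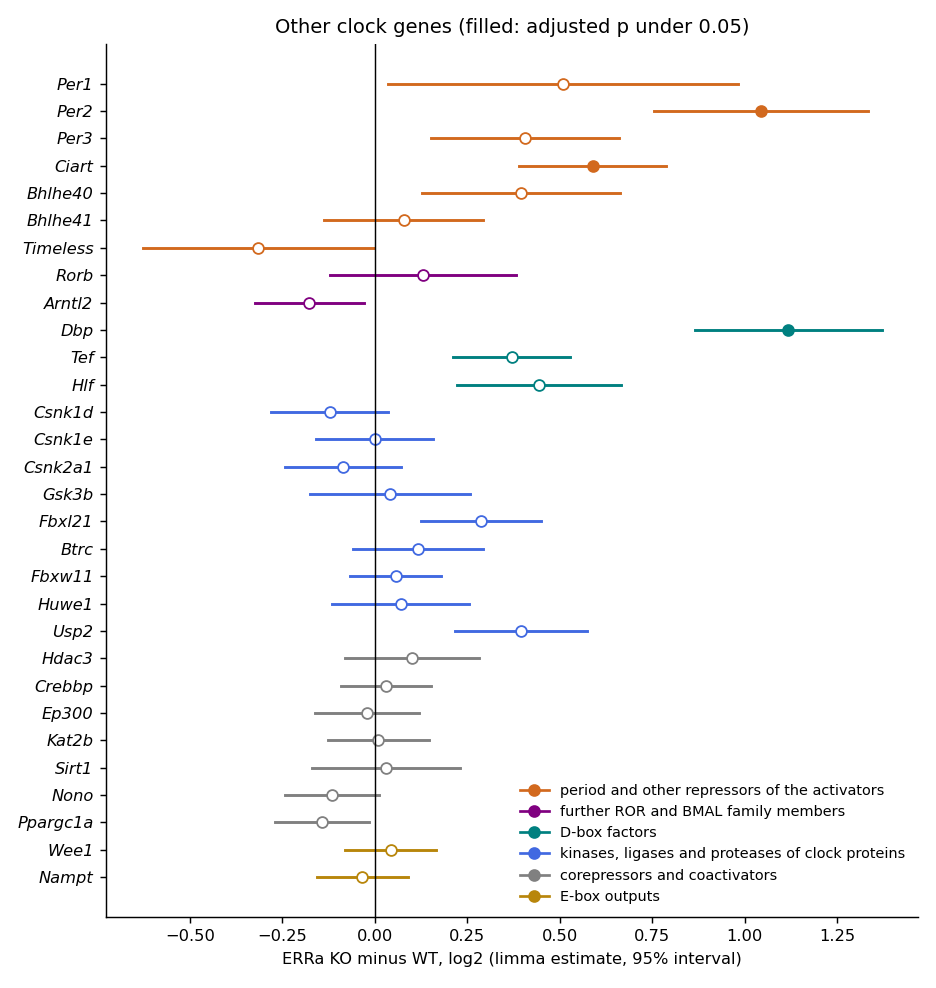
Difference between ERRa KO and WT kidneys (log2) for the 30 other measured clock genes, as the limma estimate with its 95% interval, coloured by role; filled points passed an adjusted p under 0.05. Dbp, Per2 and Ciart are the filled points. The intervals of kinases, ligases, proteases and cofactors span 0 apart from Usp2 and Fbxl21, above it, and Ppargc1a, below it.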

How the data were processed

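The values are log2 values that the authors made with RMA, per the submitters' processing notes, and deposited in a table keyed by sample. RMA background-corrects, quantile normalizes and summarises probes, and compresses low levels; the settings of that run are not stated in those notes. Array medians ran from 5.02 to 5.06, and precision is limited by having 3 arrays per genotype. A second deposited table holds the same values under exchanged genotype heads: 45101 of 45101 probe sets equal those of the other genotype's samples within 5e-05. The authors' log2 fold change and unadjusted p-value in that deposited table follow the sample table to within 7.76e-07 for the fold change, so genotypes were taken from the sample table. Any 2 arrays shared at most 131 identical values.

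Of 45101 probe sets, 64 controls were left out. A platform annotation names 1 gene for 34945 of the others; each of the 18193 genes took the values of its brightest probe set by mean over the 6 arrays. Differences, ERRa KO minus WT, were tested with limma 3.58.1 in R 4.3.3 (lmFit, eBayes, two-sided, Benjamini-Hochberg, threshold 0.05), with no filter and no pseudocount. On simulated data with the 18193 genes, 58% of changes of 0.5 and 98% of changes of 1 (log2) were recovered, with 9 unchanged genes called. With the 45037 probe sets, 41% of changes of 0.5 and 92% of changes of 1 were recovered, with 5 unchanged probe sets called. The simulated noise was normal and independent between genes and arrays, with no effect shared by the genes of 1 array. Recovery in the real arrays was thus not measured.

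Replicate numbers are shared between genotypes, but same-numbered deviations correlated at -0.08, -0.03 and -0.08, so the numbers were not taken as pairs. The named genes are the 9 members with every probe set, Esrra, the other clock genes that passed or had the 8 smallest p-values beyond those, the brightest of each role, and the 4 genes closest to Arntl and the 4 closest to its mirror image. Markers were also named as checks. Members, lists and tests were chosen with earlier results of these data known. Alternatives were averaging probe sets, a filter at the median level, repeated quantile normalization, trend and robust fitting, array weights, a replicate block, an unmoderated test, the exchanged heads and leaving out each array. No member probe set named several genes, so that alternative had nothing to change. Some listed clock genes are not reported here.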

Additional observations from a re-analysis of the deposited data

How the results depend on the processing

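Of 123 differences of single members under an alternative, 98 kept their direction and their side of the threshold. The Arntl difference was -0.36 with probe sets averaged (adjusted p = 0.103), -0.71 with the replicate block (0.0604) and -0.71 in the unmoderated test (0.233), and -0.77 to -0.63 when 1 array was left out. In the gene fit Arntl is below the median level of genes and was not tested above it, nor were Npas2 and Cry1. Member genes called numbered 0 with probe sets averaged, with the replicate block, in the unmoderated test and without any 1 array, and 3 with trend and robust fitting, namely Arntl, Nr1d2 (0.31) and Rora (0.26, the value also above the median level, where it was called). Member probe sets called were 1 above the median level and 1 with array weights, 1425099_a_at of Arntl under each. With trend and robust fitting 5 were called (1425099_a_at of Arntl, 1421037_at of Npas2, both of Nr1d2 and 1424034_at of Rora), and without any 1 array 0. All probe sets called under these alternatives were not counted, so these counts have no background share beside them. Other clock genes called were 6 with trend and robust fitting, 1 (Dbp) with the replicate block, 0 in the unmoderated test and 0 to 2 without 1 array. All genes called were 220 above the median level, 379 with trend and robust fitting, 18 with the replicate block, 0 in the unmoderated test and 10 to 39 without 1 array. Under the exchanged heads of the authors' table every sign turns: 0.71 for Arntl, 0.037 for Clock, 0.13 for Npas2, -0.0067 for Cry1, -0.42 for Cry2, -0.48 for Nr1d1, -0.31 for Nr1d2, -0.26 for Rora and 0.83 for Nfil3. Clock also turned when 1 array was left out (-0.078 to 0.011), and Cry1 then (-0.058 to 0.050) and with repeated quantile normalization (-0.033). Averaging probe sets moved Clock to -0.11, Npas2 to -0.40 and Rora to 0.15, and array weights moved Npas2 to -0.08, none of them called. The causes were not tested. Low signal limits Cry1, the dimmest Clock probe set and both Npas2 probe sets.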
